A study of Caenorhabditis elegans with 6 samples.

Results

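The genes described here are 58 named genes of fatty acid metabolism in Caenorhabditis elegans, out of 21882 genes in the count table. They were chosen by public name, with earlier results of these data known, and each name matched 1 gene identifier of the table. The list holds genes for fatty acid synthesis (2), desaturases (7), elongases (6), acyl-CoA synthetases (11), the carnitine shuttle (2), acyl-CoA dehydrogenases (8), later mitochondrial oxidation steps (6), peroxisomal oxidation (4), lipid-binding proteins (8) and regulators or enzymes of fat storage (4).

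Their RNA was measured in coelomocytes, scavenger cells of the worm's body cavity, which were purified from dissociated L3 larvae by flow sorting on GFP. Each of the 2 groups had 3 samples, and each group is 1 strain. Control cells came from strain BAT2087, which carries barIs177[unc-122prom::gfp] and glp-4(bn2) I. The CHE-1 cells came from strain BAT2088, which carries both of these and also barIs115, a transgene with an unc-122 promoter, che-1, FLAG tags and the unc-54 3' UTR, together with myo-2prom::mCherry, a red marker of the pharynx. The glp-4(bn2) allele, which leaves animals without a germline at the restrictive temperature, is thus shared by both groups. Parents grew at 15°C, and their bleached eggs hatched at 25°C without food for about 24 h before feeding. The unc-122 promoter drives both the sort marker and CHE-1. The question is which genes differ between coelomocytes with and without CHE-1, a zinc finger factor that gives the ASE taste neurons their identity.

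Fatty acids are made in the cytosol by acetyl-CoA carboxylase and fatty acid synthase, then lengthened by elongases and given double bonds by desaturases. Before they are built into lipids or burned they are joined to coenzyme A by acyl-CoA synthetases. Mitochondria take up long chains through the carnitine shuttle and shorten them by repeated rounds of dehydrogenation, hydration, a further dehydrogenation and thiolysis, while peroxisomes shorten very long chains and the side chains of ascaroside pheromones. Small lipid-binding proteins carry fatty acids inside cells or, where they have a secretion signal, between them. In the worm the intestine and the epidermis are the main sites of fat metabolism and storage, and coelomocytes are known for endocytosis from the body cavity.

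Sample totals ran from 21353072 to 58325279 estimated counts. The transgene's che-1 had at most 3 counts in a control sample and at least 10744 in a CHE-1 sample, which fits the labels. Levels are given as TMM-scaled CPM, which relate counts to library size. The 9 coelomocyte markers, all detected in every sample, summed to between 16910 and 22260 CPM in control and between 5091 and 6941 CPM with CHE-1, with 4 called lower. The 15 neuronal markers, of which 10 were called higher and 1 lower, summed to 911.1 to 996.8 CPM against 6730 to 7831 CPM. Of 20 intestinal markers, 13 were tested and edgeR and DESeq2 made 0 calls, and edgeR gave 1 an unadjusted p under 0.05. They summed to 247.5, 344 and 321.8 CPM in control and 228.9, 957.3 and 693.8 CPM with CHE-1, mostly from asp-1. The 13 tested had a median log2 fold change (CHE-1 over control) of 1.23, from -0.78 to 3.24, against 0.04 for all tested genes. Of the 20, the intestinal factor elt-2 stayed under 3 CPM in every sample, and elt-7 was at 0 in all but control sample 3. The 15 body wall muscle markers, of which 2 were called higher and 1 lower, summed to 37400 to 38860 CPM against 18560 to 27040 CPM. Most of this sum was unc-54. Its 3' UTR is also in the che-1 transgene, which control cells lack, and what that adds to the unc-54 counts was not tested. The 14 other muscle markers summed to 1718 to 2490 CPM against 3393 to 5022 CPM, so the fall in the full sum lay in unc-54. Sums for hypodermis (17 genes) were 378.9 to 765.9 CPM against 418.8 to 522.9 CPM, for pharynx (9 genes) 71.3 to 582 CPM against 28.5 to 105.8 CPM, and for germline (13 genes) 27.8 to 43.7 CPM against 35.6 to 83.7 CPM. The part of these other cell types in the results below was not tested. In such bulk samples, fewer cells of a type and less RNA per cell cannot be told apart.

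Of the 58 genes, 52 had enough counts to be tested, and 3 passed: lbp-2 and ech-1.1 were higher and fat-1 was lower in CHE-1 coelomocytes. Over all 9112 tested genes 3.37% were called higher and 1.69% lower, so 2 and 1 of 52 are shares close to the background. In edgeR 4 of the 52 had an unadjusted p under 0.05, as did 1297 of all 9112. The classes described below held at most 11 tested genes each, too few to set 0 calls apart from these shares. The tested lipid genes had a median log2 fold change (log2FC, CHE-1 over control) of 0.01, against 0.04 for all tested genes. Their median absolute log2FC was 0.41, against 0.66. Each CHE-1 sample lay above each control sample for 5 of the 52 genes and below for 3, which was so for 13% and 10.3% of all tested genes. Summed over the 58 genes, the level was 5203, 5258 and 5333 CPM in control and 5357, 5020 and 5034 CPM with CHE-1. These sums overlapped. DESeq2 called 3 of the genes higher and 1 lower, where it called 7.26% higher and 4.36% lower of the 9504 genes to which it gave an adjusted p. The gene it added was the acyl-CoA synthetase gene acs-7.

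**Figure D1:**
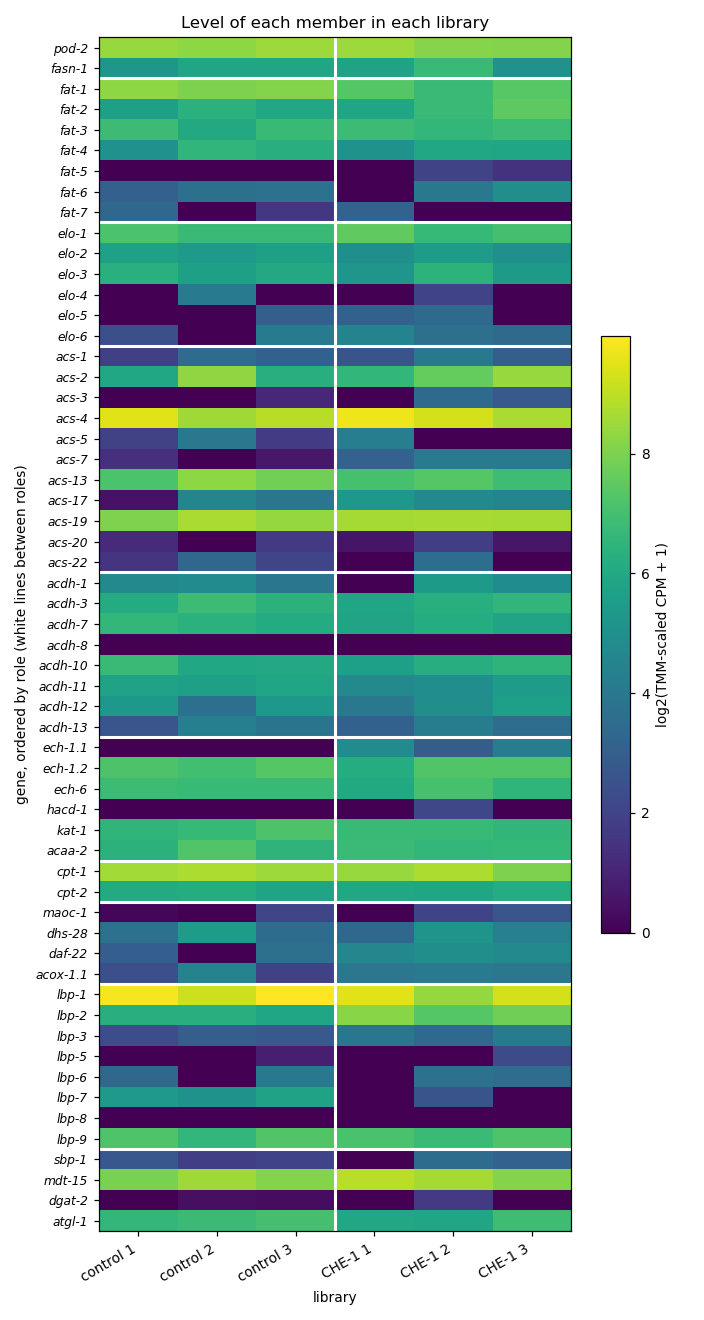
Level of the 58 genes (vertical, ordered by role) in each of the 6 libraries (horizontal), as log2 of TMM-scaled CPM plus 1 (colour, brighter is higher). The rows of fat-1 and lbp-7 are darker and those of lbp-2 and ech-1.1 brighter in the CHE-1 columns, and acdh-8 and lbp-8 are at 0 throughout.

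The precision differed among the genes. For the 26 genes with a mean of at least 50 CPM over all samples, the standard error (SE) of the log2FC had a median of 0.30, the log2FC ran from -0.97 to 1.67, and 25 of them were within 1 of zero. For the 26 tested genes below that level the median SE was 1.95. Of the 52 tested genes, 15 (28.8%) had a count of 0 in 1 sample beside at least 100 counts in another of the same group, as did 35.4% of all tested genes. The acyl-CoA dehydrogenase gene acdh-1, for example, had 0, 2657 and 1440 counts in the CHE-1 samples, and the synthetase gene acs-5 had 406, 0 and 0. For these 2 genes the 95% intervals of the log2FC allow large differences in either direction, from -3.85 to 3.99 and from -5.96 to 5.68. That of lbp-7, with 0, 317 and 0 counts in the CHE-1 samples, ran from -10.11 to 0.87.

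Control levels spanned a wide range once counts were divided by the length of the annotated exons. The secreted lipid-binding protein gene lbp-1 was the most abundant of the 58, at 1502 ± 380.9 CPM per kilobase in control samples (SD, n = 3). The lipid-binding protein gene lbp-9 followed at 233.3 ± 54.1 and the desaturase gene fat-1 at 197.5 ± 16.9 CPM per kilobase. Next in order were acs-4 (184.9 ± 63.3), acs-19 (145.1 ± 32.02), the carnitine palmitoyltransferase gene cpt-1 (140.3 ± 11.8), the elongase gene elo-1 (111.5 ± 18.2) and the enoyl-CoA hydratase gene ech-6 (106.1 ± 4.66 CPM per kilobase). After these came lbp-2 (92.4 ± 13.3), acs-13 (84.9 ± 31.8), the thiolase gene kat-1 (84.5 ± 22.5) and lbp-7 (80.8 ± 19.6 CPM per kilobase). From lbp-9 down, neighbours in this order differed by less than the larger of their SDs, except cpt-1 from elo-1 and ech-6 from lbp-2. The desaturase genes fat-5, fat-6 and fat-7, for the enzymes that place the first double bond in saturated chains, stood far lower, with fat-5 at 0, fat-6 at 9.03 ± 2.44 and fat-7 at 3.303 ± 4.21 CPM per kilobase.

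**Figure D2:**
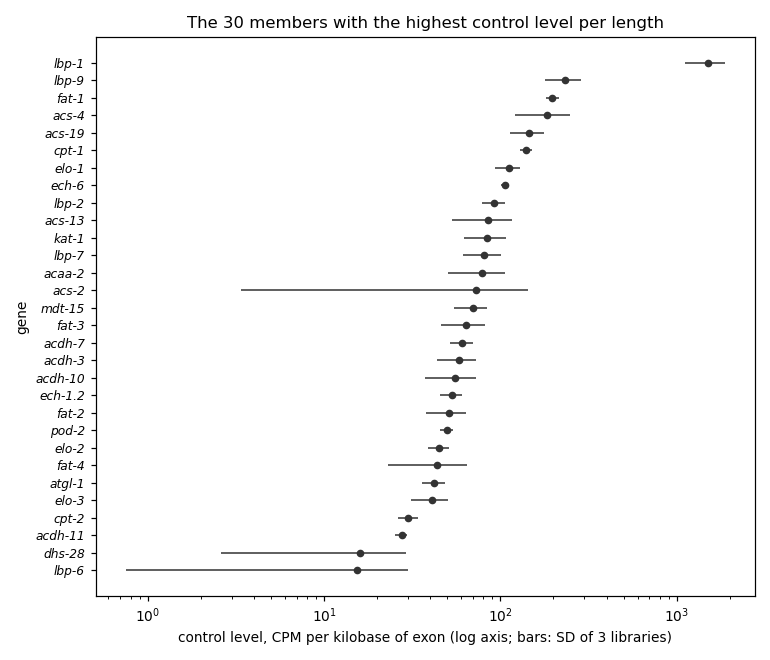
Mean level in control coelomocytes (horizontal, CPM per kilobase of exon, log axis) of the 30 genes of the list with the highest values; points are means and bars the SD of 3 libraries. The gene lbp-1 stands apart at 1502, and lbp-9 follows at 233.3.

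Neither gene of the first steps of fatty acid synthesis was called, and both overlapped between the groups. The acetyl-CoA carboxylase gene pod-2 was at 344.8, 310.2 and 366.4 CPM in control and 364.2, 285.2 and 277.9 CPM with CHE-1. Its log2FC of -0.14 had a 95% interval of -0.59 to 0.31. The fatty acid synthase gene fasn-1 was at 51.4 ± 11.8 CPM in control and 62.7 ± 36.9 CPM with CHE-1 (SD, n = 3 each), a log2FC of 0.29 with an SE of 0.44.

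Among the desaturases, fat-1 fell. This gene (WBGene00001393, build WBcel235, as for all coordinates here, chromosome IV, 13315644 to 13318811) encodes the enzyme that converts omega-6 to omega-3 fatty acids. It was at 305, 257.4 and 276.5 CPM in the control samples and at 160.8, 104.1 and 164.4 CPM in those with CHE-1. All CHE-1 samples were thus below all controls, with means of 279.6 ± 23.9 and 143.1 ± 33.8 CPM (SD, n = 3 each). The log2FC was -0.97 with an SE of 0.24, at a Benjamini-Hochberg adjusted p of 0.0454 by edgeR (0.00437 by DESeq2). The call was close to the threshold. It ended on leaving out control 1 (0.0982), control 3 (0.104), CHE-1 sample 2 (0.186), CHE-1 sample 3 (0.0627) or the shallowest sample of both groups (0.0812), all adjusted p by edgeR.

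A near neighbour on the same strand, fat-2, was not called. It encodes the enzyme that makes linoleic acid from oleic acid, and it lies 5061 bases from fat-1 with 1 annotated gene between. Its level was 49.5, 81.9 and 60.5 CPM in control and 57.2, 107.3 and 178.1 CPM with CHE-1, which overlap, and the log2FC was 0.84 (SE 0.40, adjusted p of 0.408 by edgeR). Within a sample, where scaling plays no part, fat-1 had 6.16, 3.14 and 4.57 times the counts of fat-2 in the controls and 2.81, 0.970 and 0.923 times with CHE-1. These ratios do not overlap, and their exact two-sided permutation p was 0.1, the smallest that 3 against 3 allow (0.12 adjusted over 6 such ratios, all chosen after the values were seen). Against fat-3, for the first front-end desaturase, fat-1 had ratios of 2.67, 3.96 and 2.62 in control and 1.43, 1.09 and 1.46 with CHE-1, again with an exact p of 0.1. The ratio of fat-2 to fat-3 overlapped between the groups, with an exact p of 0.6.

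The other desaturases did not pass. The gene fat-3 was at 94.99 ± 26.4 against 106.9 ± 9.99 CPM, and its neighbour fat-4, 796 bases away, for a later front-end desaturase, at 67.5 ± 31.8 against 50.2 ± 15.3 CPM. Their log2FC were 0.17 (SE 0.29) and -0.43 (SE 0.44). The genes for desaturases of saturated chains were sparse. The gene fat-6 had 371, 279 and 677 counts in control and 0, 969 and 1558 with CHE-1. Its close paralog fat-7 had 461, 0 and 113 counts against 172, 0 and 0, and how the upstream estimate shared reads between them was not examined. The gene fat-5, too low to be tested, had no count in the controls and 0, 195 and 91 counts with CHE-1. No direction could be given for fat-6 or fat-7, whose 95% intervals ran from -3.02 to 4.05 and from -7.82 to 6.78 on the log2 scale.

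Of the 6 elongase genes, 5 were tested and 0 passed in edgeR, limma-voom or DESeq2, with 0 at an unadjusted p under 0.05 in edgeR. The edgeR shares over all tested genes were 3.37% higher, 1.69% lower and 1297 of 9112 at such a p. The gene elo-1, for an elongase of polyunsaturated chains, was at 140.6, 108.1 and 106.2 CPM in control and 184.9, 102 and 127.9 CPM with CHE-1, which overlap (log2FC 0.22, SE 0.29). The palmitate elongase gene elo-2 was at 46.7 ± 6.26 against 35.5 ± 8.36 CPM, and elo-3 at 63.9 ± 15.03 against 54.8 ± 27.7 CPM. The genes elo-5 and elo-6, which serve the synthesis of branched-chain fatty acids, were sparse, with 0, 0 and 380 counts of elo-5 in control and 166, 622 and 1 with CHE-1, and 222, 0 and 869 against 464, 746 and 514 of elo-6. The gene elo-4 was too low to be tested, with 0, 381 and 0 counts against 0, 189 and 0.

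**Figure D3:**
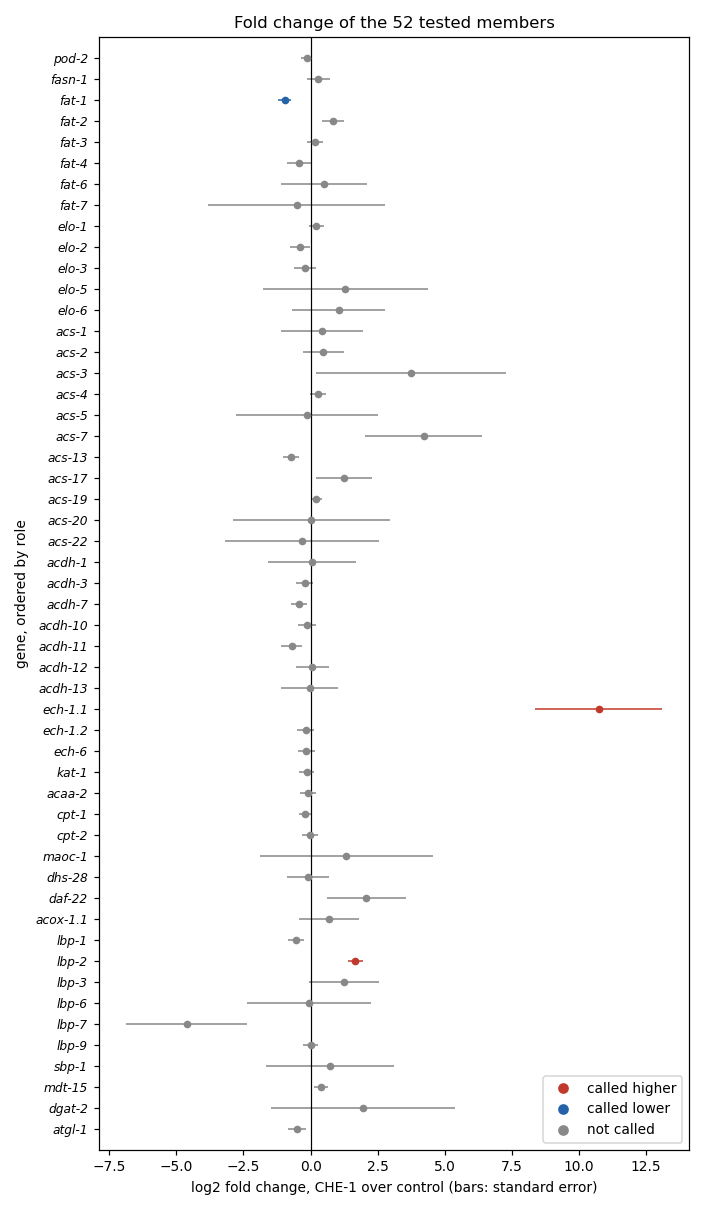
Log2 fold change of CHE-1 over control (horizontal; bars are standard errors) for the 52 tested genes, ordered by role. The called genes are lbp-2 at 1.67, ech-1.1 at 10.73 and fat-1 at -0.97, and the uncalled gene with the lowest value is lbp-7 at -4.62.

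Of the 11 acyl-CoA synthetase genes, all tested, 0 passed in edgeR, 1 had an unadjusted p under 0.05, and DESeq2 called acs-7 higher. Among all tested genes, edgeR called 3.37% higher and 1.69% lower, and 1297 of 9112 had such a p. DESeq2 called 7.26% higher and 4.36% lower. The abundant gene acs-4 was at 721.6, 371.8 and 477.9 CPM in control and 831.8, 648.3 and 420.1 CPM with CHE-1, which overlap, with a log2FC of 0.27 (SE 0.30). The acetyl-CoA synthetase gene acs-19 was at 265.5, 414.9 and 335.5 CPM against 389.7, 400.0 and 393.9 CPM, and its log2FC of 0.22 had a 95% interval of -0.25 to 0.69. The gene with the unadjusted p under 0.05 was acs-13, at 140.7, 309.9 and 227.7 CPM in control and 132.9, 162.8 and 115.1 CPM with CHE-1. These groups overlap in that control 1 lies below CHE-1 sample 2, and the log2FC of -0.72 (SE 0.30) had an adjusted p of 0.28 by edgeR.

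A synthetase gene with a part in peroxisomal ascaroside synthesis, acs-7, was nearly undetected in control cells. Its counts were 82, 0 and 31 in control and 173, 1045 and 859 with CHE-1, or 0.729 ± 0.816 against 13.6 ± 4.996 CPM (SD, n = 3 each). The groups did not overlap. The log2FC of 4.21 had an SE of 2.17 and an adjusted p of 0.471 by edgeR, against 0.0354 in DESeq2 and 0.0227 in edgeR with adjusted deviances. In limma-voom acs-7 was not called (adjusted p of 0.156). Leaving out each sample in turn gave a log2FC of 3.57 to 5.43 for it, uncalled each time (adjusted p of 0.336 to 0.697 by edgeR). The gene acs-3 had 0, 0 and 61 counts against 0, 604 and 309 (log2FC 3.75, SE 3.54). The gene acs-2, for a mitochondrial synthetase induced by fasting, spread widely within each group, at 61.9, 319.9 and 75.1 CPM in control and 95.7, 194.3 and 342.2 CPM with CHE-1. It was not called (log2FC 0.47, SE 0.77), but it was once the shallowest sample of both groups was left out (log2FC 1.90, adjusted p of 0.0282 by edgeR). The remaining members acs-1, acs-17, acs-20 and acs-22 were at 6.75 ± 3.71 against 9.16 ± 5.47, 12.5 ± 11.4 against 29.5 ± 8.64, 1.18 ± 1.13 against 1.195 ± 1.19 and 4.70 ± 3.73 against 3.75 ± 6.49 CPM, and each overlapped between the groups.

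In mitochondrial oxidation no gene but ech-1.1 passed in edgeR, and both carnitine shuttle genes overlapped between the groups. The gene cpt-1 was at 383.3, 430.6 and 366.6 CPM in control and 348.1, 425.9 and 251.7 CPM with CHE-1, a log2FC of -0.20 with a 95% interval of -0.70 to 0.30. Its inner-membrane counterpart cpt-2 was at 64.2 ± 8.32 against 63.7 ± 7.096 CPM, with an interval of -0.68 to 0.66 for the log2FC. Of 7 tested acyl-CoA dehydrogenase genes, 0 passed in edgeR or DESeq2, with 0 at an unadjusted p under 0.05 in edgeR. For all tested genes, edgeR called 3.37% higher and 1.69% lower, with 1297 of 9112 at such a p. The log2FC of these 7 dehydrogenase genes ran from -0.70 to 0.07. The lowest was that of acdh-11, known for its part in adapting desaturation to temperature, at 52.9, 49.3 and 57.7 CPM in control and 24.9, 28.6 and 45.01 CPM with CHE-1. These groups did not overlap, but the difference did not pass (SE 0.39, adjusted p of 0.543 by edgeR). The adjacent genes acdh-7 and acdh-10 on chromosome X were at 81.99 ± 12.6 against 60.8 ± 9.14 CPM and at 76.5 ± 24.8 against 69.9 ± 20.5 CPM. The genes acdh-3, acdh-12 and acdh-13 were at 87.7 ± 22.2 against 75.3 ± 18.5, 29.8 ± 15.5 against 30.99 ± 17.2 and 12.3 ± 6.76 against 11.96 ± 5.02 CPM. The gene acdh-8 had no count in any sample.

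The exception was ech-1.1 (WBGene00001150, chromosome V, 15357664 to 15361512), which rose. It encodes a version of the alpha subunit of the mitochondrial trifunctional protein, which hydrates and dehydrogenates long chains. Control samples held 0, 0 and 1 counts, and CHE-1 samples held 590, 426 and 907, which is 26.7, 6.77 and 17.3 CPM. The ratio of the group means was 2727, with a 95% interval of 489 to 107692 from the counting error of the single control count. The log2FC was 10.73 with an SE of 2.37, at an adjusted p of 0.0222 by edgeR (8.23e-10 by DESeq2). Its 95% interval, which includes the spread between samples, ran from 5.50 to 15.95. The call ended on leaving out control 3 (0.0573), CHE-1 sample 1 (0.135), CHE-1 sample 3 (0.103) or the shallowest sample of both groups (0.0766), all adjusted p by edgeR.

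Its paralog ech-1.2 had more counts than ech-1.1 in every sample and was not called. It was at 143.3, 121 and 161.8 CPM in control and 71.05, 153.2 and 152.3 CPM with CHE-1 (log2FC -0.18, SE 0.32). Relative to ech-1.2, the counts of ech-1.1 were 0.376, 0.0442 and 0.114 times as many in CHE-1 samples 1, 2 and 3. In a control sample they were at most 0.000115 times as many. The exact permutation p was 0.1, the smallest possible. It adds nothing to the counts, since with 0, 0 and 1 control counts a ratio to an abundant gene sets the groups apart. The sample with the highest level of ech-1.1 was CHE-1 sample 1, which also had the lowest level of ech-1.2 and the lowest sum of intestinal markers. It was also the shallowest of its group, and whether any of these are linked was not tested. How reads were shared between these paralogs upstream was not examined.

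The later mitochondrial steps overlapped between the groups. The hydratase gene ech-6 was at 112.7, 103.3 and 107.2 CPM against 64.8, 132.6 and 91.7 CPM (log2FC -0.16, SE 0.31). The thiolase gene kat-1 was at 89.99, 100.4 and 146.2 CPM against 103.8, 107.2 and 94.6 CPM, with a log2FC of -0.14 (SE 0.28), and the thiolase gene acaa-2 at 108.2 ± 38.4 against 101.2 ± 7.59 CPM. The hydroxyacyl-CoA dehydrogenase gene hacd-1 was too low to be tested, with no count in control and 0, 214 and 1 with CHE-1.

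Peroxisomal genes were low throughout, with 0 of 4 called by edgeR or DESeq2 and 0 at an unadjusted p under 0.05 in edgeR. Beside this, edgeR called 3.37% of all tested genes higher and 1.69% lower, with 1297 of 9112 at such a p. The thiolase gene daf-22, for the last step of side-chain shortening in ascaroside synthesis, was at 6.79, 0 and 11.7 CPM in control and 23.8, 29.4 and 24.9 CPM with CHE-1. All CHE-1 samples were higher, but the log2FC of 2.08 had an SE of 1.47 and an adjusted p of 0.752 by edgeR. The gene maoc-1, for the hydratase of the same cycle, had 7, 0 and 171 counts against 0, 198 and 275 (log2FC 1.33, SE 3.22). The dehydrogenase gene dhs-28 was at 22.5 ± 18.8 against 20.9 ± 12.9 CPM, and the acyl-CoA oxidase gene acox-1.1, for the first step, at 9.38 ± 9.93 against 15.1 ± 0.916 CPM. Summed, the 4 genes were at 24.1, 64.9 and 28.4 CPM in control and 47.4, 83.3 and 63.7 CPM with CHE-1, which overlap.

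Among the lipid-binding protein genes, lbp-2 (WBGene00002254, chromosome X, 3260610 to 3261470) rose. It encodes a lipid-binding protein with a secretion signal. It was at 76.4, 75.6 and 58.5 CPM in control and at 289, 162.3 and 220.7 CPM with CHE-1, so that the lowest CHE-1 sample was above the highest control. The mean went from 70.2 ± 10.1 to 224 ± 63.4 CPM (SD, n = 3 each), a log2FC of 1.67 with an SE of 0.28 and an adjusted p of 0.00461 by edgeR. The call held in each of the 6 fits with 1 sample left out, with adjusted p from 0.00283 to 0.0222 and log2FC from 1.45 to 1.86.

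Both other secreted family members lie beside it. On the plus strand of chromosome X, lbp-3 ends 986 bases before lbp-1 (3259142 to 3259812), and lbp-1 ends 797 bases before lbp-2, with no annotated gene lying in either gap. The more abundant lbp-1 was at 905.7, 595.5 and 999.4 CPM in control and 738.5, 332.3 and 631.6 CPM with CHE-1, which overlap (log2FC -0.55, SE 0.30, adjusted p of 0.528 by edgeR). Within a sample, lbp-2 had 0.0844, 0.127 and 0.0585 times the counts of lbp-1 in control and 0.391, 0.488 and 0.349 times with CHE-1. Every CHE-1 ratio was above every control ratio. The exact two-sided permutation p was 0.1, the smallest possible, and 0.12 adjusted over 6 ratios, all chosen after the values were seen. The gene lbp-3 was scarce, at 4.104, 7.05 and 5.79 CPM in control and 13.9, 9.69 and 16.2 CPM with CHE-1. These did not overlap, but the log2FC of 1.23 did not pass (95% interval -1.64 to 4.10, adjusted p of 0.955 by edgeR).

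Of the other family members, lbp-7 was present in all control samples and had counts in a single CHE-1 sample. Its counts were 2027, 781 and 2830 in control and 0, 317 and 0 with CHE-1, which is 39.8, 32.8 and 52.7 CPM against 0, 5.04 and 0 CPM. The groups were apart, yet the log2FC of -4.62 was not called (SE 2.27, adjusted p of 0.497 by edgeR and 0.0821 by DESeq2). It was called in limma-voom (adjusted p of 0.0227), in edgeR with adjusted deviances (2.6e-05) and in edgeR without CHE-1 sample 2 (0.000105), the sample that held all its CHE-1 counts. The other fits with 1 sample left out did not call it (adjusted p of 0.522 to 0.853 by edgeR). Relative to lbp-9, lbp-7 had 0.272, 0.339 and 0.347 times the counts in control and 0, 0.0459 and 0 times with CHE-1. The exact permutation p was 0.1, the smallest possible, for a pair chosen after these values were seen. It adds nothing to the counts of lbp-7, which a ratio to a gene of similar level in both groups restates. The gene lbp-9 itself was at 146.5, 96.5 and 151.8 CPM in control and 136.6, 109.8 and 147.5 CPM with CHE-1, with a 95% interval of -0.60 to 0.60 for the log2FC. The gene lbp-6 had 455, 0 and 819 counts against 0, 773 and 574, and lbp-5, too low to be tested, had 1, 0 and 41 against 0, 0 and 209. The gene lbp-8, whose product is known as a carrier of lipid signals from the lysosome to the nucleus, had no count in any sample. By counting error alone, a count of 0 in all samples of a group allows a mean level of up to 0.0803 CPM, which is 3 counts per sample. The true level may be higher, since 35.4% of all tested genes had a 0 beside at least 100 counts in the same group.

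**Figure D4:**
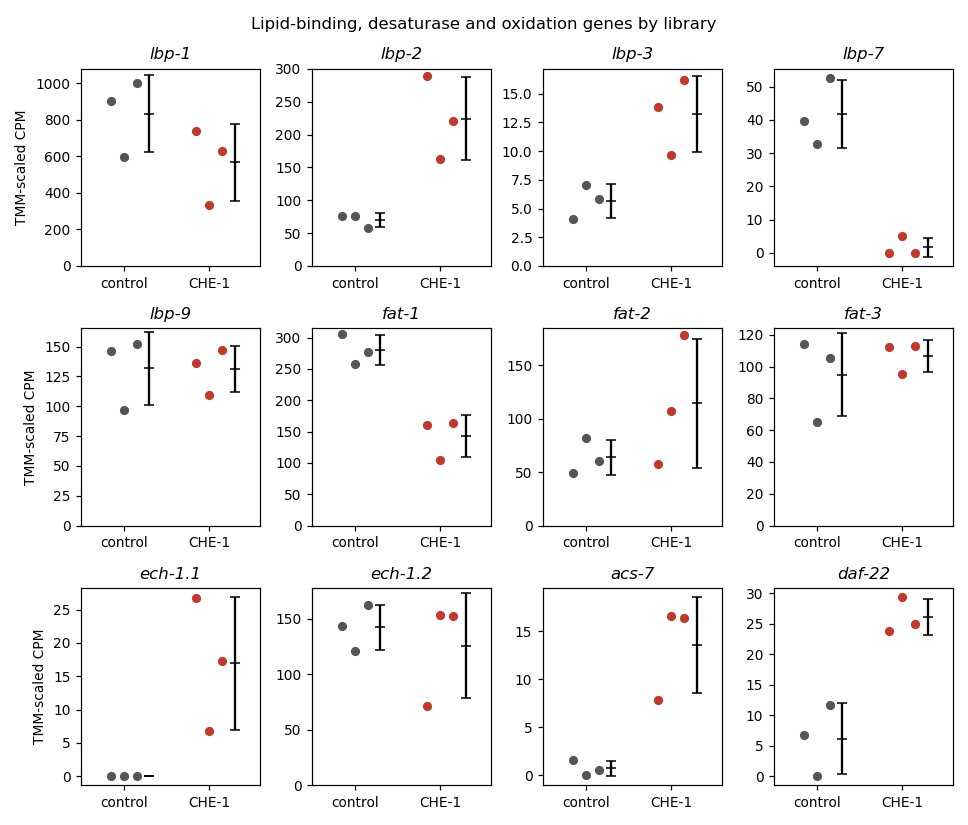
Level (vertical, TMM-scaled CPM, own axis for each gene) of 12 lipid genes in the 3 control (grey) and 3 CHE-1 (red) libraries, with mean and SD in black. The CHE-1 points of lbp-2, lbp-3, ech-1.1, acs-7 and daf-22 lie above all control points, those of fat-1 and lbp-7 lie below, and those of lbp-1, lbp-9, fat-2, fat-3 and ech-1.2 overlap them.

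Of 4 regulators and storage enzymes edgeR, limma-voom and DESeq2 called 0, with 0 at an unadjusted p under 0.05 in edgeR. Across all tested genes the edgeR shares were 3.37% higher, 1.69% lower and 1297 of 9112 at such a p. The coactivator gene mdt-15 was at 249.8, 369.7 and 274.1 CPM in control and 492, 396.1 and 275.7 CPM with CHE-1, which overlap (log2FC 0.38, SE 0.26). The lipase gene atgl-1, for the enzyme that frees fatty acids from stored triglyceride, was at 96.0, 109.1 and 130.1 CPM against 60.04, 57.4 and 117.3 CPM (log2FC -0.51, SE 0.34), with overlap by CHE-1 sample 3. The gene sbp-1, the worm SREBP and a master regulator of fat synthesis, had 282, 62 and 164 counts against 0, 670 and 405. The gene dgat-2, for an enzyme of the last step of triglyceride synthesis, had 0, 8 and 13 counts against 0, 142 and 0 (log2FC 1.96, SE 3.42).

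Other genes of lipid metabolism were read from 7 further lists with 137 names, of which 135 were in the table and 103 were tested. Among these, 2 were higher and 1 lower, against a background of 3.37% and 1.69%, and the median log2FC was 0.04. Each CHE-1 sample was above each control for 17 of the 103 and below for 8, against 13% and 10.3% of all tested genes. The higher genes were mmaa-1 and the Niemann-Pick type C homologue ncr-1, at 29.3 ± 16.7 against 156.6 ± 39.2 CPM (adjusted p of 0.0144 by edgeR, and 0.109 once the shallowest sample of both groups was left out). The lower gene was ivd-1, for the isovaleryl-CoA dehydrogenase of leucine breakdown. It went from 309.2, 197.4 and 315.7 CPM to 108.1, 97.8 and 139.6 CPM, a log2FC of -1.25 (SE 0.26, adjusted p of 0.0167 by edgeR). This call ended on leaving out control 3 (0.0636) or CHE-1 sample 2 (0.0717).

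Propionate breakdown, which in the worm runs through a vitamin B12-dependent route and a shunt that shares acdh-1 and ech-6 with the genes above, held mmaa-1. This gene, the homologue of a human factor that serves methylmalonyl-CoA mutase, was at 29.9, 34.4 and 33.4 CPM in control and 90.7, 98.9 and 119.4 CPM with CHE-1. All CHE-1 samples were higher, with a log2FC of 1.66 (SE 0.30, adjusted p of 0.00756 by edgeR), and the adjusted p ran from 0.00869 to 0.04 with each sample left out in turn. Of the 9 tested genes of this list 1 was higher and 0 lower, against 3.37% and 1.69% of all tested genes. In edgeR 5 had an unadjusted p under 0.05, as did 1297 of all 9112 tested genes. The CHE-1 samples were all above the controls in 4 of the 9 and all below in 1, pcca-1, against 13% and 10.3% of all tested genes. The mutase gene mmcm-1 was at 182.2 ± 27.9 against 312.5 ± 43.4 CPM and did not pass in edgeR (log2FC 0.78, adjusted p of 0.0822; 0.00566 in DESeq2). The subunits of propionyl-CoA carboxylase did not pass either, pccb-1 at 222.4 ± 56.4 against 366.4 ± 39.1 CPM (adjusted p of 0.131 by edgeR) and pcca-1 at 314.1 ± 28.6 against 207 ± 48.8 CPM (0.246). In the shunt, hach-1 was at 26.9 ± 3.08 against 54.5 ± 12.7 CPM (adjusted p of 0.227 by edgeR), while acdh-1, ech-6 and alh-8 overlapped between the groups. The listed gene mmab-1 went the other way from mmaa-1, at 16.1, 14.9 and 17.9 CPM against 17.9, 0.826 and 3.62 CPM (log2FC -1.13, SE 1.26). It overlapped between the groups, as did mce-1 (log2FC 0.55) and hphd-1 (0.80).

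**Figure D5:**
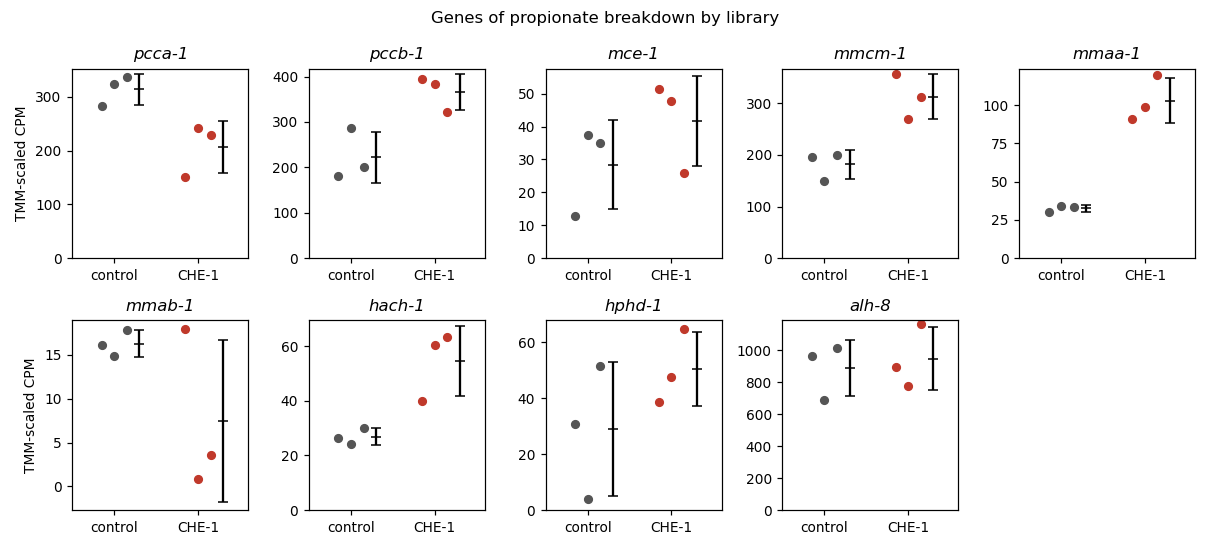
Level (vertical, TMM-scaled CPM, own axis for each gene) of the 9 propionate genes in the 3 control (grey) and 3 CHE-1 (red) libraries, with mean and SD in black. The CHE-1 points of mmaa-1, at 90.7 to 119.4, lie above its control points.

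For the 27 tested genes of triglyceride, phospholipid and lipase function, edgeR made 0 calls and gave 7 an unadjusted p under 0.05, and DESeq2 called 6 higher and 1 lower. Over all tested genes, 1297 of 9112 had such a p in edgeR, and DESeq2 called 7.26% higher and 4.36% lower. Each CHE-1 sample was above each control for 8 of the 27 and below for 1, against 13% and 10.3% of all tested genes. The DESeq2 calls included hosl-1 (adjusted p of 0.00358), lpin-1 (0.00731) and lipl-8 (1.22e-05), all higher, and acl-4 (0.0324), which was lower. None of these overlapped between the groups. For lipl-8 this rests on no count in control and 376, 18 and 785 counts with CHE-1 (adjusted p of 0.126 by edgeR). The lipid droplet gene plin-1 was at 390.8, 264.6 and 263.7 CPM in control and 1030, 533.6 and 390.4 CPM with CHE-1, where control 1 lies just above CHE-1 sample 3 (log2FC 1.09, adjusted p of 0.134 by edgeR and 0.0324 by DESeq2). This list summed to 1147, 930.0 and 1038 CPM in control and 1867, 1484 and 1448 CPM with CHE-1. For 11 further synthetase, elongase and related genes edgeR made 0 calls and gave 1 an unadjusted p under 0.05, and DESeq2 called acs-16 higher. For 18 further peroxisomal genes edgeR made 0 calls and gave 1 an unadjusted p under 0.05, and DESeq2 called the transporter gene pmp-3 lower. For 18 fat regulators edgeR made 0 calls and gave 2 an unadjusted p under 0.05, and DESeq2 called nhr-62 lower. The nuclear receptor gene nhr-49 was at 159.3 ± 6.10 against 233.4 ± 33.9 CPM (adjusted p of 0.253 by edgeR).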

How the data were processed

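The submitters' processing notes name Salmon 0.13.1, DESeq2 and the build WBcel235, without saying what each did. The raw table deposited by the authors gives an estimated count for each gene, as whole numbers. The deposited normalized table is a signal, each value being a raw value over 1 factor for its library, and was used only to check that. How transcripts became genes and whether strand was used are not stated in those sources.

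Names and exon lengths came from a gene name table and the Ensembl WBcel235 annotation. Groups were compared by edgeR 4.0.16 in R 4.3.3 (robust quasi-likelihood test, two-sided, TMM factors, minimum count 10, minimum total 15), on all genes, with Benjamini-Hochberg adjustment over 9112 tested genes and a threshold of 0.05. DESeq2 1.42.0 and limma-voom (limma 3.58.1) were alternatives. SE is the absolute log2 fold change over the square root of F, approximate near 0 counts, and the 95% intervals use it. Scripts were tested on simulated data.

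Genes given in full are those called, those with an unadjusted p under 0.05, the 12 highest in control per kilobase, the 8 with the largest absolute fold, untested genes with a mean of at least 5 counts in a group, and called genes of the further lists. Others were chosen after their values were seen. The 58 genes and the further lists were chosen with earlier results of these data known. No label says that samples of a group were separate cultures, so the p-values reflect the spread between these samples only, and that may be technical. No sample was treated as a repeat deposit of another, since those of a group differed by more than the counting of reads alone gives (chi-square over its degrees of freedom 201.1 or more). This does not show that they are separate cultures. Floors and counting intervals cover counting error only, since PCR copies are not independent molecules. Of the 58 genes, 13 overlap a gene of the opposite strand that has counts, and 0 of the 3 called genes overlap any annotated gene.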

Additional observations from a re-analysis of the deposited data

How the results depend on the processing

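Over all genes, calls higher and lower numbered 307 and 154, and 474 and 255 with no count filter, 695 and 354 with adjusted deviances in edgeR, 520 and 294 with limma-voom and 690 and 414 with DESeq2, against 234 to 347 and 113 to 179 when each library was left out. Of the 58 lipid genes, 1 to 2 were called higher and 0 to 1 lower when each library was left out. The number lower was 2 with adjusted deviances, 2 with limma-voom and 0 once the shallowest sample of both groups was dropped. Over the 7 further lists together, 8, 4 and 10 genes were called higher with adjusted deviances, limma-voom and DESeq2 (2 to 4 when each library was left out). Lower were 4, 2 and 4, and 2 with no count filter (0 to 2 when each library was left out). The cause of these shifts was not tested. With RLE factors every count was within 1.5 times of that with TMM factors. The 12 genes highest in control stayed the same 12 with the longest transcript as length.

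Of 264 recomputed fold changes (19 lipid genes and 3 others), 233 kept direction and side of the threshold, 12 lost and 6 gained the call, and 13 changed sign, all of them in genes that were not called. These were acs-4 (-0.22) and elo-1 (-0.16) once the shallowest sample of both groups was dropped, dgat-2 in limma-voom (-0.16), lbp-9 with RLE factors (0.01) and in DESeq2 (0.01), and, over the fits without 1 library, acs-2 (-0.07 to 1.55), dgat-2 (-5.98 to 2.54), ech-6 (-0.46 to 0.06), elo-1 (-0.04 to 0.40), kat-1 (-0.33 to 0.07) and lbp-9 (-0.25 to 0.11). No paired analysis was possible because the labels give no replicate numbers that the groups share. Library names run in consecutive numbers across the groups, but no label says that neighbours share a culture, sort or day, so they were not used as a block. Of the tested lipid genes, 15 had counts of 0 beside at least 100 in a sample of the same group, and the cause was not tested. These zeros were not always in the shallower samples: acs-5 had 406 counts in the shallowest CHE-1 sample and 0 in both deeper ones.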
